A study of Mus musculus with 9 samples.

Results

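Cartilage is layered, and several secreted or membrane-anchored proteins are made mainly in 1 layer or at 1 stage of the chondrocyte. The genes for 8 such proteins were followed here: Prg4, Cilp, Cilp2, Ucma, Snorc, Cnmd, Scrg1 and Clu. They were taken by gene name from a table of 56748 genes; each name matched 1 gene, and all 8 were among the 15502 genes with enough counts to be tested. RNA was sequenced from primary cultures of chondrocytes, the cells of cartilage, which had been released by collagenase from knee cartilage of mice with genotype WT (wild type). There were 3 libraries from cells given interleukin-1β (IL-1β) with recombinant secreted frizzled-related protein 5 (SFRP5), 3 from cells given IL-1β alone and 3 from control cells. IL-1β is a cytokine used to provoke inflammation and matrix loss in cartilage, and SFRP5 is an extracellular inhibitor of Wnt signalling. The labels state no dose, time, age or sex, no group received SFRP5 alone, and nothing says whether the libraries of a group came from separate animals or cultures, so that the p-values rest on library-to-library spread that could be technical.

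Lubricin, the product of Prg4, is a mucin-like glycoprotein made by the surface zone of articular cartilage and by the lining of the synovium, where it lubricates the joint. In humans its loss causes a disorder of the joints. Cilp and Cilp2 encode cartilage intermediate layer proteins, of which the first lies in the middle zone of articular cartilage and can bind TGF-β and dampen IGF1 signalling. Ucma, Snorc, Cnmd and Scrg1 belong to immature and growth plate cartilage as well: Ucma is a Gla protein of the upper growth plate, Snorc a small proteoglycan anchored in the membrane, Cnmd (chondromodulin) a precursor whose released part keeps vessels out of cartilage, and Scrg1 a small secreted protein of chondrocyte differentiation. Clu encodes clusterin, a secreted chaperone.

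The 8 genes did not move as 1 group. Prg4 was 7.27-fold higher with IL-1β than in control and a further 1.78-fold higher when SFRP5 was added to IL-1β. Snorc and Scrg1 fell to 8.54% and 5.65% of their control levels with IL-1β alone, and both were higher with SFRP5 added, at 16.2% and 11.9% of control. Cnmd and Ucma also fell with IL-1β, to 28.2% and 19% of control, and stood at 27.9% and 19% with SFRP5 added. Cilp2 and Clu rose with IL-1β and were not called with SFRP5 added. Cilp, which was close to the limit of detection, was lower with IL-1β, but could be tested only through its control libraries. In bulk RNA such as this, fewer cells of a type and less RNA per cell cannot be told apart.

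**Figure D1:**
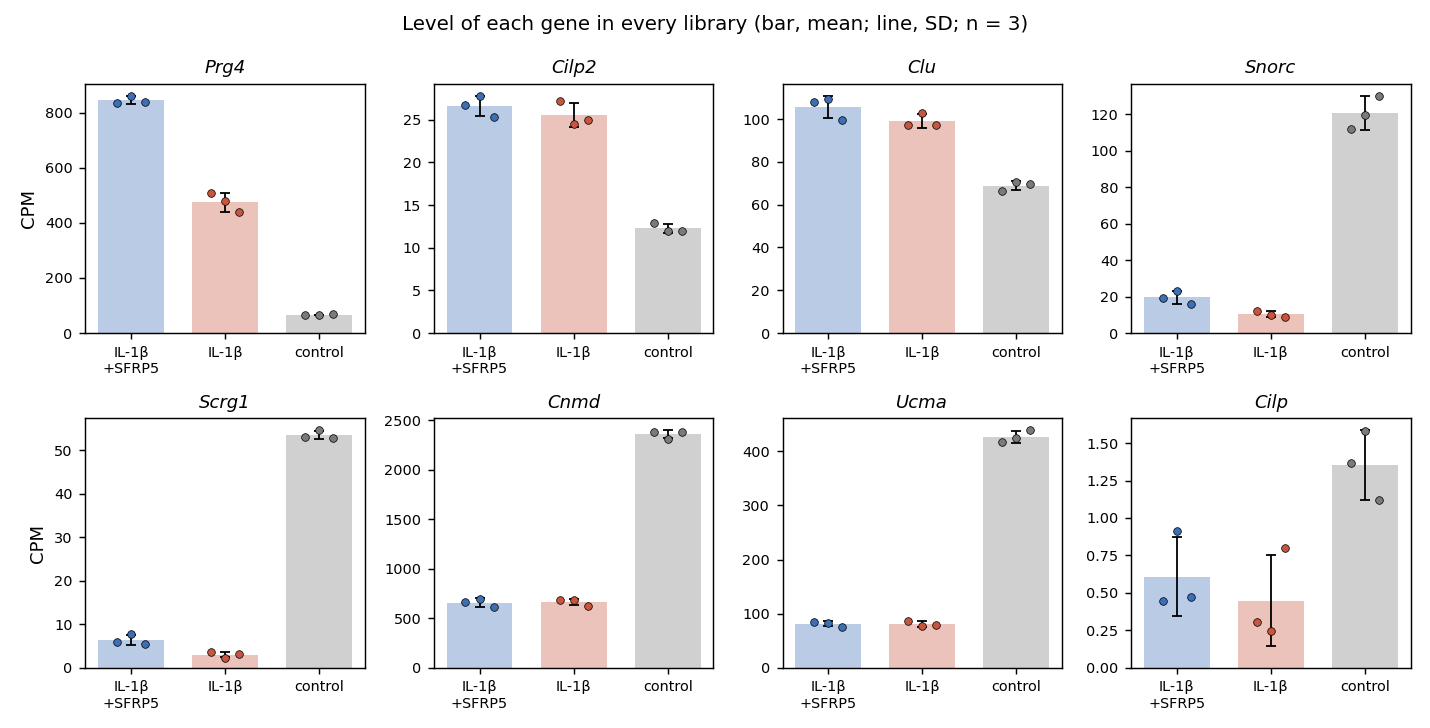
Level of each of the 8 genes in every library, in CPM (counts scaled to a common library size), with IL-1β+SFRP5 on the left, IL-1β in the middle and control on the right of each panel; points are libraries, bars means and lines SD of 3 libraries. Prg4 steps up toward the left, Snorc and Scrg1 are lowest with IL-1β alone, and Cnmd and Ucma stand at the same low height in both IL-1β groups.

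The libraries held 15795985 to 20688963 counts with IL-1β+SFRP5, 17833535 to 18717286 with IL-1β and 17960438 to 20107339 in control. Levels are CPM, the counts of a gene relative to the corrected total of its library, and 3 counts in 1 library equalled 0.135 to 0.195 CPM. No library stood apart from its group. All 7 chondrocyte markers checked (Col2a1, Acan, Sox9, Hapln1, Matn3, Col9a1 and Col11a1) were detected in every group, and all 7 were lower in both IL-1β groups than in control. Col2a1, the main collagen of cartilage, was at 20770 ± 805 CPM with IL-1β+SFRP5, 15410 ± 539 CPM with IL-1β and 74500 ± 1040 CPM in control (SD, n = 3 each). Changes are log2 fold changes ± SE, and calls rest on an adjusted p below 0.05 in edgeR's quasi-likelihood test, from which every adjusted p given here comes.

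The first question was what IL-1β did to these genes. Of the 8 genes, 3 rose (Prg4, Cilp2 and Clu) and 5 were called lower (Scrg1, Snorc, Ucma, Cnmd and Cilp), Cilp with a limit given below. In the same comparison 78.9% of all genes tested were called, 38.5% as higher and 40.4% as lower, a share so high that a count of calls among 8 genes says little about these genes. For all 8 the libraries of the 2 groups did not overlap, as for 80% of genes tested. The sizes of the changes differed more from the background, with a median absolute log2 change of 2.11 against 0.75 over all genes tested. The 8 were chosen with earlier results of these data known, so this difference is a description and not a test. The signed median was −1.70 against −0.03.

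Prg4 (ENSMUSG00000006014) rose at the joint-surface end of the set. It had 507.7, 479.4 and 439.1 CPM in the IL-1β libraries, against 64.91, 63.93 and 67.38 CPM in control. Every IL-1β library was far above every control library, and the controls were nearly alike. Its log2 change was 2.86 ± 0.05 (adjusted p = 7.83e-26), which was larger than that of 94.6% of genes tested.

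Cilp2 (ENSMUSG00000044006), the less studied of the intermediate layer proteins, rose by a smaller step, to 27.16, 24.46 and 24.99 CPM with IL-1β, against 12.88, 11.96 and 11.98 CPM in control. The groups did not overlap, and the log2 change was 1.06 ± 0.08 (adjusted p = 7.41e-12). Its relative Cilp (ENSMUSG00000042254) went the other way, at 5, 4 and 14 counts in the IL-1β libraries, against 27, 35 and 22 counts in control. These are 0.304, 0.242 and 0.797 CPM with IL-1β, against 1.36, 1.58 and 1.12 CPM in control, so that only the third IL-1β library came near the controls. The log2 change of Cilp was −1.57 ± 0.44 (adjusted p = 0.0021), and −2.26 without that library. Cilp had enough counts to be tested only through its control libraries, where it is high, so its fall is no test. Per kilobase of gene length Cilp2 was the more abundant of the pair in each group.

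Clu (ENSMUSG00000022037), the chaperone, changed least among the 8. It had 97.15, 102.7 and 97.46 CPM with IL-1β, against 66.58, 70.71 and 69.52 CPM in control. The libraries were tight in both groups, so that this 1.44-fold difference was called, with a log2 change of 0.52 ± 0.05 (adjusted p = 4.33e-10).

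Scrg1 (ENSMUSG00000031610) fell most among the 8. It had 3.58, 2.30 and 3.19 CPM with IL-1β, against 52.99, 54.59 and 52.91 CPM in control. The IL-1β libraries held 59, 38 and 56 counts, enough to measure a level that was 17.7-fold lower. The log2 change was −4.14 ± 0.11 (adjusted p = 3.06e-21), and 2.68% of genes tested had a lower value. Snorc (ENSMUSG00000026258) had 12.27, 9.75 and 8.88 CPM with IL-1β, against 112, 119.5 and 130.4 CPM in control. No library of one group approached the other, and the log2 change was −3.55 ± 0.10 (adjusted p = 2.66e-21).

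Ucma and Cnmd were the most abundant of the 8 in control, and their falls were milder. Ucma (ENSMUSG00000026668) had 87.13, 77.57 and 79.02 CPM with IL-1β, against 416.8, 425 and 439 CPM in control. That is a log2 change of −2.39 ± 0.05 (adjusted p = 7.32e-24). Cnmd (ENSMUSG00000022025) had 682.6, 681.5 and 626.7 CPM with IL-1β, against 2380, 2312 and 2381 CPM in control. In both genes the groups were well apart, and Cnmd, with a log2 change of −1.83 ± 0.04 (adjusted p = 8.42e-23), still ranked 90th per kilobase among the genes tested with IL-1β, against 14th in control.

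The 250 bases upstream of the start of these 2 genes, which moved together, are shown with those of Cilp2, which rose. The sequences are from RefSeq on GRCm38.p6, in a table of promoters in which 4 of the 8 genes were matched (Cilp, Cilp2, Ucma and Cnmd), and are read on the strand of the gene, 5′ to 3′. They were Ucma at chr2:4975872-4976121 on the plus strand, Cnmd at chr14:79662184-79662433 on the minus strand and Cilp2 at chr8:69887393-69887642 on the minus strand. Capitals mark matches to a RUNX motif (ACCACA), a SOX motif (AACAAT) or a GC box (GGGCGG), each searched on both strands.
Ucma: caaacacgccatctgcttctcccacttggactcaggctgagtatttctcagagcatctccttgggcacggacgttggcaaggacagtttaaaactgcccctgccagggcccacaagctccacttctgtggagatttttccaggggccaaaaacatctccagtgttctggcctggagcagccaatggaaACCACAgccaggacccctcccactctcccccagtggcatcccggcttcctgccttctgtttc
Cnmd: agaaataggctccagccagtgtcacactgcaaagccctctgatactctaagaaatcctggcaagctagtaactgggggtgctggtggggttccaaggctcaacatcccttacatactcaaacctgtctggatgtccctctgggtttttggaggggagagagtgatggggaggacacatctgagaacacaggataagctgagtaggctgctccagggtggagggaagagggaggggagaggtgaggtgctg
Cilp2: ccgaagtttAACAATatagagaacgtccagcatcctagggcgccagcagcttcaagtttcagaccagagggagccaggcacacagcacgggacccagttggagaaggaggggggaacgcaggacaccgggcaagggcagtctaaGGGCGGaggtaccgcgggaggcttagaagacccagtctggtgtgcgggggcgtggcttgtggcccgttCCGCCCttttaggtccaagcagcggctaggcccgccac
The Ucma window held 1 RUNX match, which 14% of the 32851 promoter windows of the same length held. The Cilp2 window held 1 SOX match, found in 9.42% of windows, and 2 GC boxes, found in 32.7%. Searches for an NF-κB consensus, an AP-1 site (TGANTCA), a CRE (TGACGTCA), a TCF/LEF core (CTTTGA) and a TATA box (TATAAA) found no match in the 3 windows. Of all windows, 5% held the NF-κB consensus, 6.75% the AP-1 site, 1.55% the CRE, 13.8% the TCF/LEF core and 12.4% the TATA box. None of the 8 motifs was matched in the Cnmd window.

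The second question was what SFRP5 changed in the presence of IL-1β. Prg4, Snorc and Scrg1 rose, 0 of the 8 genes fell, and the other 5 were not called. Of all genes tested 31.3% were called, 15.6% as higher and 15.7% as lower. The libraries of the 2 groups did not overlap for the same 3 genes, as for 40.8% of genes tested. The median log2 change of the 8 was 0.24 against 0.01 over all genes tested.

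**Figure D2:**
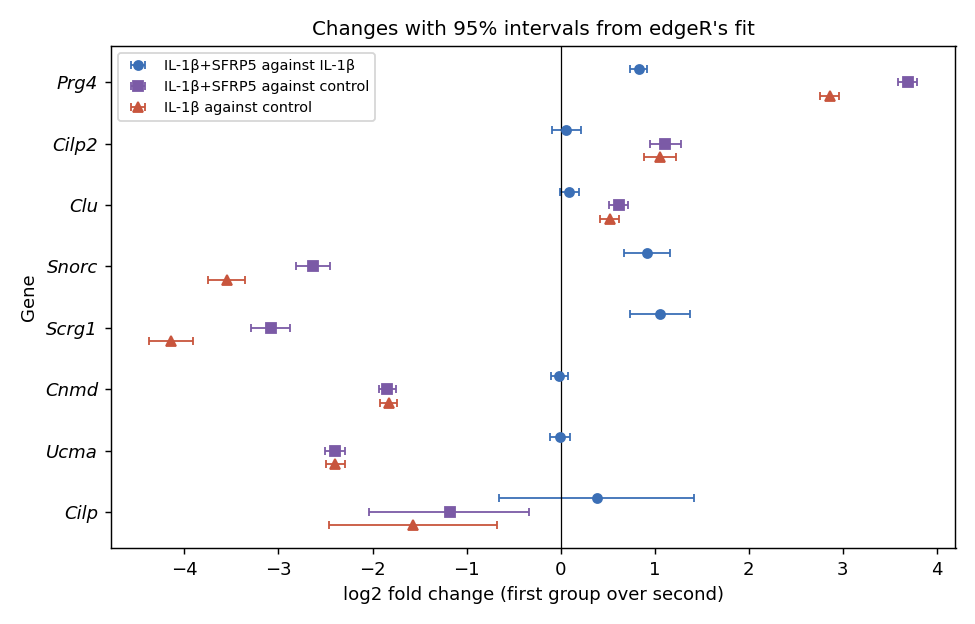
Log2 fold change of each gene in the 3 comparisons, with 95% intervals from edgeR's fit; circles are IL-1β+SFRP5 against IL-1β, squares IL-1β+SFRP5 against control and triangles IL-1β against control. The circles of Prg4, Snorc and Scrg1 lie to the right of 0, those of Cnmd, Ucma and Cilp2 sit on it, and the interval of Cilp is the widest.

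Prg4 had 834.2, 861.9 and 837.4 CPM with IL-1β+SFRP5, against 507.7, 479.4 and 439.1 CPM with IL-1β. All 3 libraries with SFRP5 were above all 3 with IL-1β alone, and they were closer to each other, with a coefficient of variation of 1.79% against 7.25%. The log2 change was 0.83 ± 0.04 (adjusted p = 6.33e-14), larger than that of 95% of genes tested. IL-1β had raised Prg4, so SFRP5 took it further from control, not back to it.

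Scrg1 and Snorc moved toward control instead. Scrg1 had 5.87, 7.68 and 5.55 CPM with IL-1β+SFRP5, against 3.58, 2.30 and 3.19 CPM with IL-1β, a log2 change of 1.06 ± 0.16 (adjusted p = 6.51e-06). Snorc had 19.43, 23.16 and 15.99 CPM with IL-1β+SFRP5, against 12.27, 9.75 and 8.88 CPM with IL-1β, a log2 change of 0.92 ± 0.12 (adjusted p = 9.58e-07). For both genes the groups did not overlap and the second library with SFRP5 was the highest. The changes of Scrg1 and Snorc were larger than those of 96.8% and 95.8% of genes tested.

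Cnmd and Ucma showed no such step. Cnmd had 668.6, 694.9 and 609.7 CPM with IL-1β+SFRP5, against 682.6, 681.5 and 626.7 CPM with IL-1β. Ucma had 83.73, 83.65 and 75.64 CPM with IL-1β+SFRP5, against 87.13, 77.57 and 79.02 CPM with IL-1β. The groups overlapped for both. The fold between the groups had a 95% interval of 0.934 to 1.05 for Cnmd (adjusted p = 0.856) and 0.926 to 1.07 for Ucma (adjusted p = 0.971), which leaves room for differences of a few percent. The interval for Snorc, 1.6 to 2.24, lay above both.

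Cilp2, Clu and Cilp were not called either. Cilp2 had 26.73, 27.78 and 25.37 CPM with IL-1β+SFRP5, against 27.16, 24.46 and 24.99 CPM with IL-1β, with an interval of the fold of 0.936 to 1.16 (adjusted p = 0.598). Clu had 108.1, 109.5 and 99.72 CPM with IL-1β+SFRP5, against 97.15, 102.7 and 97.46 CPM with IL-1β, and the groups overlapped. Its interval was 0.997 to 1.14 (adjusted p = 0.147), and Clu passed the threshold without the third library with SFRP5 (adjusted p = 0.049). Cilp had 9, 14 and 8 counts with IL-1β+SFRP5, against 5, 4 and 14 counts with IL-1β, with an interval of the fold of 0.637 to 2.68 (adjusted p = 0.611), so that a difference of that size was not detectable at this depth. The log2 change of Cilp was 0.39, and 1.11 without the third IL-1β library, 0.01 without the second library with SFRP5.

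**Figure D3:**
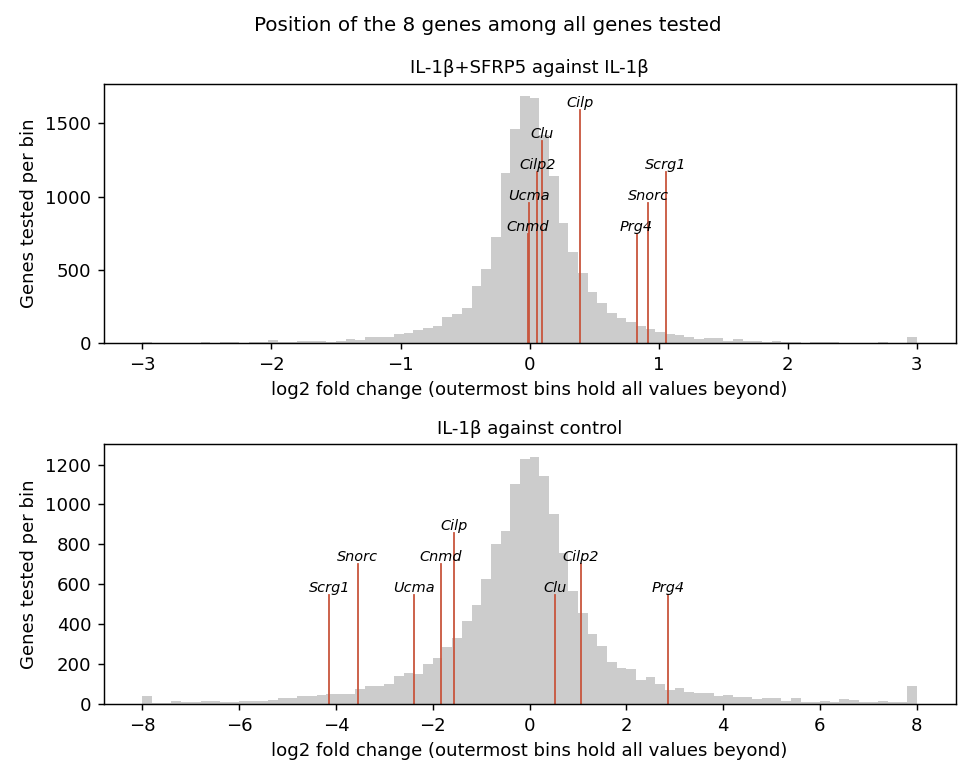
Number of tested genes per bin of log2 fold change (grey), for IL-1β+SFRP5 against IL-1β above and IL-1β against control below, with the 8 genes marked by red lines; the heights of the lines carry no value. Prg4, Snorc and Scrg1 lie in the right tail of the upper panel, while Cnmd, Ucma, Cilp2 and Clu lie under the central peak.

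The third comparison set IL-1β+SFRP5 against control, and shares its libraries with the others. The same 3 genes were higher and the same 5 lower as with IL-1β alone. Of all genes tested 76.3% were called here, 37.3% as higher and 39% as lower. The libraries of the groups did not overlap for any of the 8, as for 78.2% of genes tested. Prg4 was 12.9-fold higher, with a log2 change of 3.69 ± 0.05 (adjusted p = 8.09e-28). Scrg1 and Snorc remained below control with log2 changes of −3.08 ± 0.10 and −2.63 ± 0.09 (adjusted p = 1.16e-19 and 2.12e-19). For Cilp the log2 change was −1.18 ± 0.41 (adjusted p = 0.0121), and the call was lost without the second control library (adjusted p = 0.0554) or without the first (adjusted p = 0.0693) or the third library with SFRP5 (adjusted p = 0.0536). As Cilp could be tested only through its control libraries, its fall is no test here either. The other log2 changes were 1.12 ± 0.08 for Cilp2, 0.62 ± 0.05 for Clu, −2.40 ± 0.05 for Ucma and −1.84 ± 0.04 for Cnmd.

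Levels of different genes were compared per length, as CPM per kilobase of the gene length listed in the table. Cnmd led in every group, at 356.9 ± 23.7 CPM per kilobase with IL-1β+SFRP5, 360.1 ± 17.4 with IL-1β and 1279 ± 21.5 in control. In control Ucma (483 ± 12.7), Snorc (167.1 ± 12.8) and Scrg1 (76.42 ± 1.35) followed, and Clu (20.06 ± 0.618) and Prg4 (15.28 ± 0.416) came after them, all in CPM per kilobase. With IL-1β+SFRP5, Prg4 came next at 197.3 ± 3.53 and then Ucma at 91.64 ± 5.25 CPM per kilobase. With IL-1β alone the pair were closer, at 111.1 ± 8.06 for Prg4 and 91.9 ± 5.83 for Ucma, and their libraries did not overlap. Clu (30.78 ± 1.55) and Snorc (27.04 ± 4.96) were within their spread of each other with IL-1β+SFRP5. Cilp was last in every group.

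The summed level of the 8 genes was 719.1 ± 39.1 CPM per kilobase with IL-1β+SFRP5, 616.5 ± 30.9 with IL-1β and 2044 ± 34.9 in control. Within that sum Prg4 took 27.5% ± 1.23 with IL-1β+SFRP5, 18% ± 0.409 with IL-1β and 0.748% ± 0.00761 in control (SD, n = 3 each). Cnmd took 49.6%, 58.4% and 62.6% in the same order of groups, and Ucma 12.7%, 14.9% and 23.6%. In control Prg4 was 0.748% of the mix, although at 15.28 CPM per kilobase it stood above 84.3% of genes tested. It was the second component in both IL-1β groups, where its own rise and the lower sum both raised its share.

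**Figure D4:**
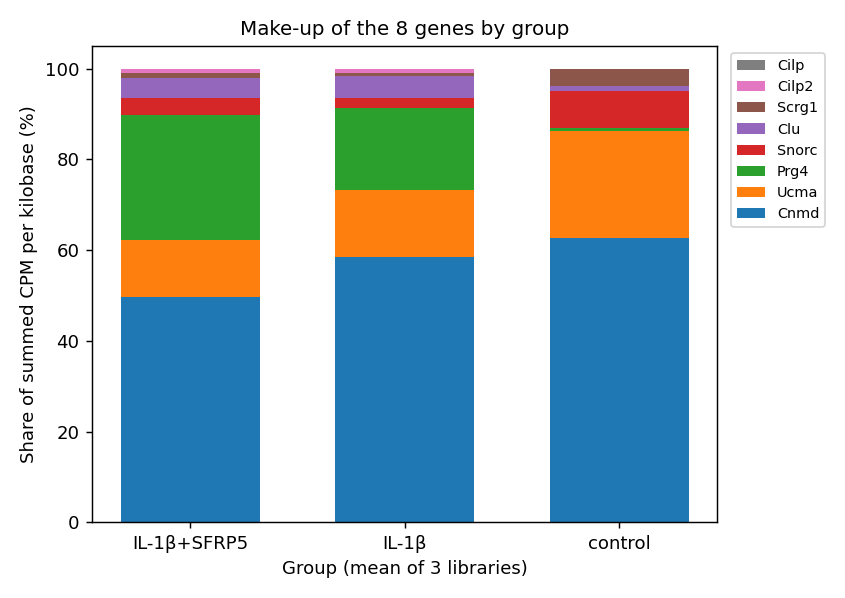
Share of each gene in the summed CPM per kilobase of the 8 genes, in percent, as the mean of 3 libraries per group, with IL-1β+SFRP5 on the left, IL-1β in the middle and control on the right. The Prg4 segment is 27.5% on the left, 18% in the middle and too thin to see clearly in control, at 0.748%.

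Over all 9 libraries, the gene profiles closest to each of the 8 were found by the distance between centred log2 levels, among 9050 genes with a mean of at least 10 CPM. For Prg4 these were Ntn1, which encodes the guidance factor netrin-1, and Spp1, which encodes osteopontin, at distances of 0.423 and 0.48. Ntn1 had 94.64 CPM with IL-1β+SFRP5, 53.65 with IL-1β and 8.89 in control. For Scrg1 the closest was Anln, which encodes the cytokinesis protein anillin (0.315), then Mtss2 (0.559), and for Snorc they were Igfbp4, an IGF-binding protein (0.515), and the homeobox gene Hoxa10 (0.578). Cnmd lay closest to Phactr2 (0.129) and to Itga10, a collagen-binding integrin chain of chondrocytes (0.165). Ucma lay closest to the lipoprotein lipase Lpl (0.261) and the fibril collagen Col11a1 (0.27). Setd5 lay close to Cilp2 (0.169), and the closest to Clu were Zfp869 (0.106) and the collagen prolyl hydroxylase P4ha1 (0.116), and to Cilp, at larger distances, Emc8 (1.08) and Arhgap11a (1.09). Among the 8 themselves the closest pairs were Cilp2 with Clu (0.756), Ucma with Cnmd (0.805) and Snorc with Scrg1 (0.867), and the farthest was Prg4 with Scrg1 (9.73).

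Other genes of the joint surface did not all move as Prg4 did. Of 12 listed superficial zone genes 4 rose and 7 fell with IL-1β, with a median log2 change of −0.73 against −0.03 over all genes tested. For this list and those below, the shares of all genes tested were 38.5% higher and 40.4% lower with IL-1β. With SFRP5 added these shares were 15.6% higher and 15.7% lower. Creb5, a transcription factor that drives Prg4 in the surface zone, rose to 39.22 ± 2.41 CPM with IL-1β, against 8.89 ± 0.671 CPM in control (log2 2.15, adjusted p = 4.83e-18). With IL-1β+SFRP5 Creb5 was at 43.14 ± 3.09 CPM, a log2 difference from IL-1β of 0.14 ± 0.07 (adjusted p = 0.147). The matrix protein Tnc rose by 1.68 on the log2 scale, and Foxo3 and Gdf5, named after their values were seen, by 1.17 and 1.08. Dkk3, a secreted protein of the Dickkopf family, fell to 4.81 ± 0.827 CPM with IL-1β, against 246.5 ± 10.4 CPM in control, and was 15.83 ± 1.5 CPM with IL-1β+SFRP5. The hyaluronan synthase Has2 fell by 3.37 on the log2 scale. With SFRP5 added, 3 of the 12 rose and 1, the matrix protein Abi3bp, fell by 0.40 on the log2 scale (adjusted p = 1.76e-08), with a median of 0.13 against 0.01.

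Transcripts of receptors and proteases for lubricin were also measured. Of 7 tested genes on this list 5 rose and 1 fell with IL-1β, with a median log2 change of 0.76 against −0.03. Cd44, the hyaluronan receptor that also binds lubricin, had 1625 ± 31.7 CPM with IL-1β, against 72.60 ± 1.21 CPM in control. With IL-1β+SFRP5 it had 738.3 ± 16.9 CPM, a log2 change from IL-1β of −1.14 ± 0.03 (adjusted p = 1.06e-18), opposite in direction to that of Prg4. The toll-like receptor Tlr2, another binding partner of lubricin, rose by 2.36 on the log2 scale with IL-1β (adjusted p = 3.92e-21), and Tlr5, a receptor for flagellin, fell to 0.293 CPM with IL-1β, against 4.46 CPM in control. Tlr5 passed the filter only through control, so its fall is no test. Beside Cd44, which fell, 3 of the list rose with SFRP5 added, for a median of 0.12 against 0.01. Tlr5 was among them (adjusted p = 0.0159), but lost the call without the first (0.0704) or the second IL-1β library (0.0552) or the third with SFRP5 (0.0988), as adjusted p. The protease Ctsg had 0 counts in both IL-1β groups.

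Cartilage matrix and SOX genes fell together. All 18 listed were lower with IL-1β (17 were called without the third IL-1β library), with a median log2 change of −1.26 against −0.03, and 8 rose and 1 fell with SFRP5 added, with a median of 0.13 against 0.01. Matn3 and Hapln1, a matrilin and the link protein of cartilage, had log2 changes of −4.90 and −4.18 with IL-1β, beside −4.14 for Scrg1. Sox6 and Sox5, which act beside SOX9 in chondrocytes, had the largest changes with SFRP5 added. Sox6 had 49.77 ± 4.32 CPM with IL-1β+SFRP5, 20.04 ± 2.43 CPM with IL-1β and 183.6 ± 4.07 CPM in control, with a log2 change from IL-1β of 1.31 ± 0.07 (adjusted p = 2.65e-13). Sox5 rose by 0.85 ± 0.07 (adjusted p = 9.24e-11), while Sox9 was not called, at 0.01 ± 0.04 (adjusted p = 0.892).

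Ucma is one of the proteins whose glutamates are carboxylated with vitamin K, and the genes of that system fell beside it. All 7 listed genes were lower with IL-1β, with a median log2 change of −1.99 against −0.03. Among them Bglap, with 20 counts over the IL-1β libraries against 100 over control, passed the filter only through control. Its fall is no test. Mgp, the matrix Gla protein that blocks calcification, had 11.51 ± 1.55 CPM with IL-1β, against 300.7 ± 18 CPM in control, and Gas6, a Gla protein that activates receptor kinases, fell by 4.26 on the log2 scale. With SFRP5 added 5 of the 7 rose, with a median of 0.42 against 0.01. Ucma itself was not called, and its difference from these genes was not tested. Gas6 had 31.85 ± 0.437 CPM with IL-1β+SFRP5, against 16.16 ± 0.723 CPM with IL-1β (log2 0.98, adjusted p = 2.46e-12), and Pros1, protein S, rose by 0.86 (adjusted p = 1.35e-11).

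Cnmd is set here beside other genes that hold back or promote vessels. Of 12 such genes 3 rose and 8 fell with IL-1β, with a median log2 change of −0.72. Vegfa, the main vessel growth factor, had 1006 ± 49.2 CPM with IL-1β, against 97.78 ± 1.98 CPM in control, and Vegfc rose by 2.01 on the log2 scale. Timp3 and Thbs1, both inhibitors of vessel growth, fell, with log2 changes of −7.01 and −5.24. Not all promoters of vessels rose, as Fgf2 and Angpt1 fell, with log2 changes of −1.62 and −1.22. With SFRP5 added 6 rose and 1, Vegfa, fell by 0.11 on the log2 scale (adjusted p = 0.0279), with a median of 0.18 against 0.01. The call of Vegfa was lost without the first (0.118) or the third IL-1β library (0.0888) or the first (0.0644) or the second library with SFRP5 (0.157), as adjusted p, and with upper-quartile scaling (0.0543). Timp3 and Thbs1 rose by 3.23 ± 0.04 and 1.498 ± 0.05 on the log2 scale (adjusted p = 1.21e-27 and 1.23e-17), while Cnmd was not called. The 6 that rose also held promoters of vessels, among them Fgf2, at 1.37 ± 0.14 (adjusted p = 3.44e-08). Tnmd, tenomodulin, the nearest relative of Cnmd, had 1.11 ± 0.461 CPM with IL-1β, against 2.45 ± 0.44 CPM in control (adjusted p = 0.00157).

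**Figure D5:**
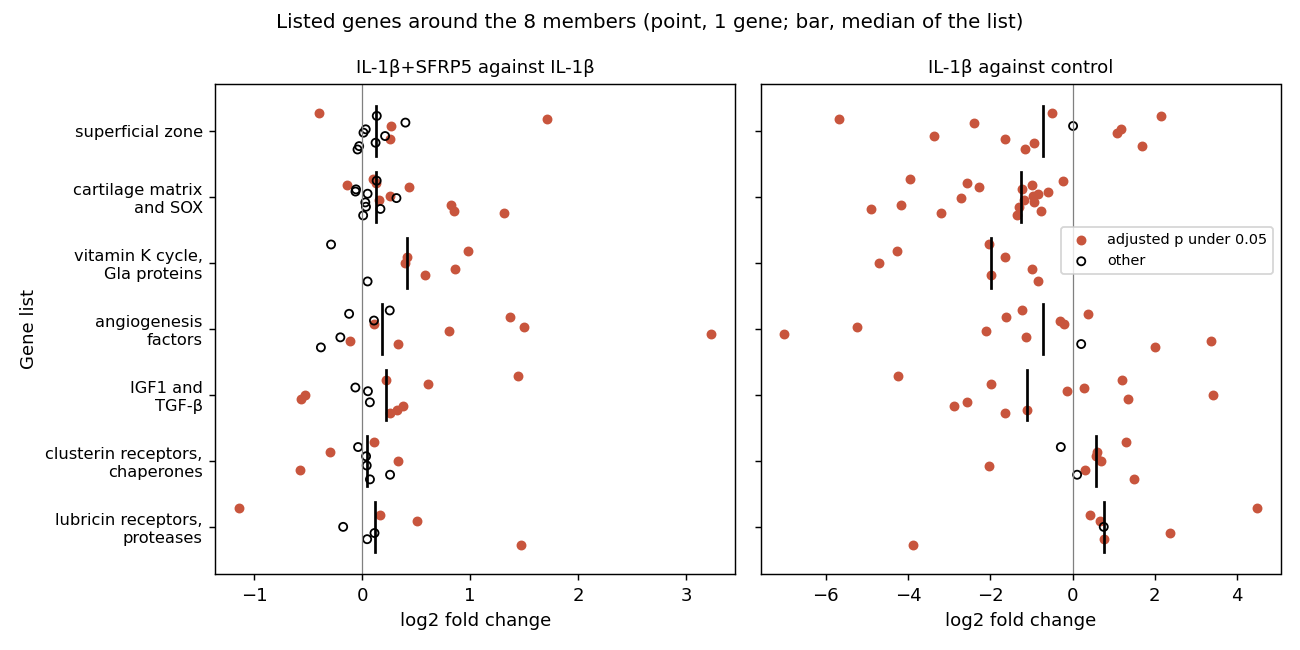
Log2 fold change of every tested gene on 7 lists around the 8 genes, for IL-1β+SFRP5 against IL-1β on the left and IL-1β against control on the right; filled points passed an adjusted p of 0.05, open points did not, and black bars are list medians. All filled points of the matrix and vitamin K lists lie left of 0 on the right, and most of those on the left lie right of 0.

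The pathways that intermediate layer proteins touch moved in both directions. Of 11 genes of IGF1 and TGF-β signalling 4 rose and 7 fell with IL-1β, with a median log2 change of −1.10. Igf1 fell to 19 counts over the IL-1β libraries, against 444 in control (log2 −4.23, adjusted p = 2.85e-12), and Tgfb3 fell by 2.89 on the log2 scale, while Tgfb1 and the feedback inhibitor Smad7 rose by 1.34 and 3.43. With SFRP5 added 6 rose and 2 fell, with a median of 0.22. The insulin receptor substrate Irs1 rose by 0.61. Igf1 had 55 counts over the IL-1β+SFRP5 libraries, a log2 change from IL-1β of 1.45 (adjusted p = 0.0099), and its call was lost without the third IL-1β library (adjusted p = 0.0634) or the first with SFRP5 (adjusted p = 0.132). Clusterin receptors and chaperones were listed together, with Hspa5 and Sdf2l1, which act mainly inside the cell, and the matrix proteoglycan Hspg2. Of 9 tested genes 6 rose and 1 fell with IL-1β, where 38.5% of all genes tested were called higher. Their median was 0.56 against −0.03. The lipoprotein receptor Vldlr (log2 1.498) and the protease trap A2m (1.30) rose most, whereas Lrp2 fell by 2.03. With SFRP5 added, 2 of them rose and 2 fell, with a median of 0.04. Lrp1 rose by 0.34, and Lrp8 fell by 0.57. A2m, at 0.11 (adjusted p = 0.0272), was not called without the first IL-1β library (0.0847) or the first (0.0837) or the second library with SFRP5 (0.0716), nor with no low-count filter (0.07), as adjusted p.

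Cells other than chondrocytes can make some of the 8, and their markers were measured in the same libraries. Synovial lining cells also make Prg4. Of 8 synovial and fibroblast markers 6 were tested, 2 rose (Pdpn and Hbegf) and 3 fell (Thy1, Pdgfra and Dpp4) with IL-1β, with a median log2 change of −0.25. With SFRP5 added Pdgfra rose by 0.87, Pdpn fell by 0.73 and Hbegf fell by 0.13 on the log2 scale, with a median of 0.06. Hbegf lost that call without the second (0.0667) or the third IL-1β library (0.11) or the first (0.101) or the third library with SFRP5 (0.0515), as adjusted p. The summed level of these markers was 471.8 to 483.2 CPM with IL-1β+SFRP5, 610.3 to 637.2 CPM with IL-1β and 146.3 to 147.1 CPM in control. In the IL-1β groups Pdpn and Hbegf made up most of it. Pdgfra had 46.39 CPM with IL-1β+SFRP5, 25.39 CPM with IL-1β and 65.85 CPM in control. Clic5, a marker of the synovial lining, had 2 counts over the IL-1β+SFRP5 libraries, 3 over the IL-1β libraries and 6 over control. The part of synovial cells in the Prg4 values was not tested.

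Of 10 macrophage and leukocyte markers 5 were tested, 4 rose with IL-1β (median 2.22) and 3 fell with SFRP5 added (median −0.56). Of the 4, Csf1r was at the threshold (adjusted p = 0.0498), and its adjusted p ran from 0.0332 to 0.166 over the alternatives. Their sum was 36.69 to 41.89 CPM with IL-1β+SFRP5, 54.44 to 58.69 CPM with IL-1β and 14.13 to 15.2 CPM in control. The pan-leukocyte marker Ptprc had 6 counts over the IL-1β+SFRP5 libraries, 12 over the IL-1β libraries and 6 over control, and Fcgr1 had 0 with IL-1β. Endothelial markers summed to 2.24 to 3.25, 3.33 to 4.19 and 0.361 to 0.508 CPM in the same order of groups, and 2 of 5 were tested. Both rose with IL-1β (median 4.20), Emcn was at 0 counts in each group and Kdr at 0 with IL-1β+SFRP5. Cdh5 had 87 counts over the IL-1β libraries against 1 over control, and Tek 68 against 18. At those counts in control, Cdh5 and Tek passed the filter only through the IL-1β groups, so their rises and the median are no test. With SFRP5 added 1 of them, Cdh5, fell (median −0.35, adjusted p of Cdh5 0.0308), and lost the call without the second (0.0959) or the third IL-1β library (0.0809) or the third with SFRP5 (0.177) and in DESeq2 (0.0557). Osteoblast markers, 5 of 7 tested and all 5 lower with IL-1β (median −2.40), summed to 2288 to 2483, 1840 to 1950 and 5227 to 5399 CPM, nearly all of it Col1a1, with Dmp1 at 0 counts in both IL-1β groups. Sp7, Ibsp and Bglap had 6, 13 and 20 counts over the IL-1β libraries, against 716, 528 and 100 over control. They passed the filter only through control, so their falls are no test. With SFRP5 added 2 of the osteoblast markers rose (median 0.33), Col1a1 and Bglap2. Bglap2, which may share reads with its close copy Bglap, lost the call in 4 of the 9 fits that left out 1 library, with an adjusted p of up to 0.183. The part of these cells in the results was not tested.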

How the data were processed

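Per the labels' protocols, the 9 libraries (3 per group) were made with a directional RNA kit and read in pairs. The protocols name fastp for trimming, STAR for alignment against mm10, and RSEM for quantification. Their versions, the annotation and the strand setting are not given in the sources used here. Whole-number counts per gene, not scaled between libraries, were deposited by the authors. RSEM divides reads shared by several genes; how values became whole is not given. The positions in the table are not those of GRCm38 and were not used.

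The letter and last digit of each column name gave its sample. Genes passing filterByExpr were tested with edgeR 4.0.16 under R 4.3.3 in 1 quasi-likelihood fit of all 9 libraries (a mean for each group, TMM scaling). The p-values were adjusted by Benjamini-Hochberg over 15502 genes. The fit was tested on simulated data. The first mark set for recovery of changed genes was not met in every case, and a later, lower mark covered only the larger changes. The common biological coefficient of variation was 4.97%. CPM were computed with TMM-corrected library sizes. The SE is the log2 change divided by the root of F, and 95% intervals use the fit's degrees of freedom. Intervals and floors assume independent reads. Log2 CPM (prior count 2) served for profile distances. Alternatives used RLE or upper-quartile factors, DESeq2 1.42.0, limma-voom (limma 3.58.1), no filter, robust dispersions, 6 libraries, a replicate block, and each library left out.

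The 8 members and the 13 other lists were chosen with earlier results of these data known. Named genes are the 8, at most the 2 most raised and 2 most lowered called genes per list with IL-1β, the 2 most changed with SFRP5, and the 2 nearest profiles per member, of which 1 is not reported here. Foxo3, Gdf5, Dpp4, Ctsg, Fgf2, Angpt1, Hspa5, Sdf2l1, Hspg2 and Bglap fall outside this rule. So do the untested markers (Clic5, Ptprc, Fcgr1, Emcn, Kdr and Dmp1). All were named after their values were seen, as were markers given for the check of the cell type. Libraries gave no sign of pairing by replicate number, as 0 of 9 same-numbered pairs had correlated deviations over 0.1. That does not show whether libraries shared a culture or an animal.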

Additional observations from a re-analysis of the deposited data

How the results depend on the processing

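The numbers of members called higher and lower in the 3 comparisons moved by at most 1 gene under the 17 alternatives, 9 of which left out 1 library. Of 407 recomputed log2 changes of the 8 genes 396 kept their direction and side of the threshold. The 3 that lost the call were those of Cilp against control with SFRP5, and 1, that of Clu with SFRP5 added, gained it; their values stand in the report. The 7 that changed sign were near 0 and not called, all for SFRP5 added to IL-1β. Cnmd was then at 0.001 with upper-quartile factors, at 0.008 without IL-1β replicate 1, at 0.007 without IL-1β replicate 2 and at 0.039 without IL-1β+SFRP5 replicate 3. Ucma was at 0.010 with upper-quartile factors, at 0.050 without IL-1β replicate 1 and at 0.044 without IL-1β+SFRP5 replicate 3. With 1 library left out, Cnmd ran from −0.054 to 0.039 and Ucma from −0.035 to 0.050. The main values were −0.013 and −0.003, and the cause was not tested. Of 1461 recomputed changes of listed genes 1424 kept their call, 37 lost it and 0 changed sign; those lost for A2m, Bglap2, Cdh5, Csf1r, Hbegf, Igf1, Tlr5 and Vegfa are given in the report. The others were Lrp8 with IL-1β under upper-quartile factors (adjusted p = 0.129) and Mgp with SFRP5 added without IL-1β+SFRP5 replicate 2 (adjusted p = 0.0678). Among counts of called genes on the lists, those that moved by over 1.5 times other than through the genes above went from 1 to 2 for clusterin partners lower with IL-1β (upper-quartile factors, or without control replicate 1), and, with SFRP5 added, for hypertrophic markers lower (without IL-1β replicate 3) and tendon markers higher (without IL-1β+SFRP5 replicate 3), and from 0 to 1 for macrophage markers lower with IL-1β (no low-count filter). Several other counts moved by no more than that, among them matrix genes higher with SFRP5 added (6 to 8, against 8), angiogenesis genes higher with SFRP5 added (5 to 8, against 6) and synovial markers lower (2 to 4, against 3) and endothelial markers higher (2 to 3, against 2) with IL-1β. With the replicate number as a block, 3 members were higher and 5 lower with IL-1β, 3 higher and 0 lower with SFRP5 added, Csf1r lost its call (adjusted p = 0.0684), and same-numbered libraries had correlations of −0.036 to 0.040 between their deviations. Cilp and Tlr5 with SFRP5 added could not be tested in the 6 libraries compared, where their counts were too low for the filter. Upper-quartile factors moved the median of all genes with IL-1β to −0.18, against −0.03 with TMM factors, and Clu to 0.38. Among the 8 genes depth limits Cilp most, with 4 to 35 counts a library.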

Other observations

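Markers of hypertrophic chondrocytes, which form the zone below the one where Ucma and Cnmd are made in the growth plate, went both ways. Of 9 tested markers 3 rose and 5 fell with IL-1β, with a median log2 change of −0.66 against −0.03 over all genes tested. Among those that fell, Ihh and Ibsp had 3 and 13 counts over the IL-1β libraries, against 193 and 528 over control. Both passed the filter only through control, so their falls are no test. The collagenase Mmp13 had 4119 ± 85.6 CPM with IL-1β, against 32.91 ± 2.71 CPM in control, and the channel Panx3 had 1.15 ± 0.281 CPM with IL-1β, against 73.49 ± 3.04 CPM in control (SD, n = 3 each). With SFRP5 added Panx3 and Spp1 rose, Mmp13 fell, and the median was −0.04. Panx3 was then at 2.59 ± 0.0204 CPM (log2 change from IL-1β 1.17, adjusted p = 4.69e-05 in edgeR's test) and Mmp13 at 3115 ± 25.9 CPM (−0.40, adjusted p = 1.57e-09). Of 6 tested tendon and ligament markers 5 fell with IL-1β, with a median of −0.94, and with SFRP5 added 1 rose (Scx) and 1 fell (Egr1), with a median of 0.08. Their summed level was 1432 to 1587 CPM with IL-1β+SFRP5, 1453 to 1555 CPM with IL-1β and 2749 to 2775 CPM in control. Scx, a transcription factor of tendon, had 7.46 ± 0.645 CPM with IL-1β+SFRP5, 3.06 ± 0.364 CPM with IL-1β and 4.89 ± 0.888 CPM in control, and its log2 change from IL-1β was 1.29 ± 0.18 (adjusted p = 2.5e-06).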
